A study of Homo sapiens with 2 samples.

Results

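A set of 3 genes of autophagy was followed here in HepG2 cells lacking secernin 1. They are Gabarap and Gabarapl1, which encode ubiquitin-like modifiers of the ATG8 family, and Tax1bp1, which encodes a receptor that carries cargo to them. They were taken by symbol, and all 3 members were found among the 3764 genes of the deposited count table. The measurements are RNA-seq counts from 1 SCRN1 knockout library and 1 vector library. Both come from HepG2, an established human hepatocellular carcinoma line grown in serum-supplemented medium with no treatment. In the knockout the SCRN1 gene was disrupted with CRISPR-Cas9, and the vector cells are labelled wild type. The labels do not say whether the knockout cells are 1 clone or a pool. Each genotype has 1 library, so the differences lack any check against replicates, and the intervals given (95%, exact) reflect counting error alone.

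In macroautophagy a membrane grows around cytoplasmic cargo, closes and fuses with the lysosome. ATG8 proteins such as GABARAP and GABARAPL1 are attached to a lipid of that membrane, where they recruit cargo receptors and the machinery for closure and fusion. TAX1BP1 binds ubiquitin-tagged cargo at one site and ATG8 proteins at another, and it also works with the ubiquitin-editing enzyme TNFAIP3 and the ligases ITCH and RNF11 to restrain inflammatory signalling. In hepatocytes autophagy supplies nutrients during fasting and clears damaged organelles and protein aggregates.

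The libraries could not be checked against their labels. Every listed gene carries a mouse identifier, symbol and position, although the cells are human and the submitters' processing notes name GRCh38. Listed counts summed to 163644 in the knockout and 178421 in the vector library, and a count of 0 allows up to 18.3 CPM (counts scaled to a common library total) in the knockout and 16.8 CPM in the vector, taking 3 counts as the floor. No secernin gene (Scrn1, Scrn2, Scrn3) was listed. Of 9 hepatocyte and HepG2 markers 1 was listed, Krt8, with 2 counts in the knockout and 0 in the vector library, while Alb, Apoa1, Afp and Hnf4a were not listed. Of 5 fibroblast markers 2 were listed (Col1a1 and Vim), with 19 counts in the knockout and 18 in the vector library. Of 5 leukocyte markers only Lyz2 was listed, with 3 counts in the knockout and 21 in the vector library. The part of such RNA in the values below was not tested. In bulk RNA, fewer cells expressing a gene and less of its RNA per cell cannot be told apart.

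For none of the 3 genes was a difference between the libraries larger than counting error. Gabarap and Gabarapl1 had ratios close to 1, and Tax1bp1 had a lower value in the knockout library with an interval that includes equality. Within the pair of ATG8 genes, Gabarap held about the same share of their joint counts in both libraries.

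Gabarap, whose protein was first described as a binding partner of a GABA receptor subunit, had 404 counts in knockout cells and 438 in vector cells. These counts correspond to 2469 CPM (2234 to 2722) in the knockout and 2455 CPM (2230 to 2696) in the vector. The libraries thus overlapped over nearly the whole of both intervals. After scaling with TMM factors (trimmed mean of M values, which correct for library size and composition), the ratio of knockout to vector was 1.02 (0.889 to 1.17). Gabarap is ENSMUSG00000018567, protein-coding, at chr11:69991143-69994951 in the mouse coordinates of the table, which name no build. In the human annotation GENCODE 29 (GRCh38), GABARAP spans chr17:7240014-7242770 on the minus strand.

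Gabarapl1, a close paralog whose protein is also conjugated to autophagosome membranes, had 117 counts in knockout cells and 126 in vector cells. That is 715 CPM (591 to 857) in the knockout and 706 CPM (588 to 841) in the vector. Here too the libraries overlapped almost fully, at a ratio of 1.03 (0.792 to 1.33). With fewer counts than Gabarap, its interval was wider. Gabarapl1 is ENSMUSG00000030161, protein-coding, at chr6:129533160-129542346 on the mouse coordinates, and human GABARAPL1 spans chr12:10212458-10223130 on the plus strand.

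Tax1bp1, the receptor gene, had 90 counts in knockout cells and 109 in vector cells. That is 550.0 CPM (442 to 676) in the knockout and 611 CPM (502 to 737) in the vector. The knockout value was the lower of the pair, and each value lay inside the interval of the other library. The ratio was 0.914 (0.683 to 1.22), a log2 ratio of -0.13. Tax1bp1 is ENSMUSG00000004535, protein-coding, at chr6:52713729-52766780 on the mouse coordinates, and human TAX1BP1 spans chr7:27739331-27844564 on the plus strand.

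**Figure D1:**
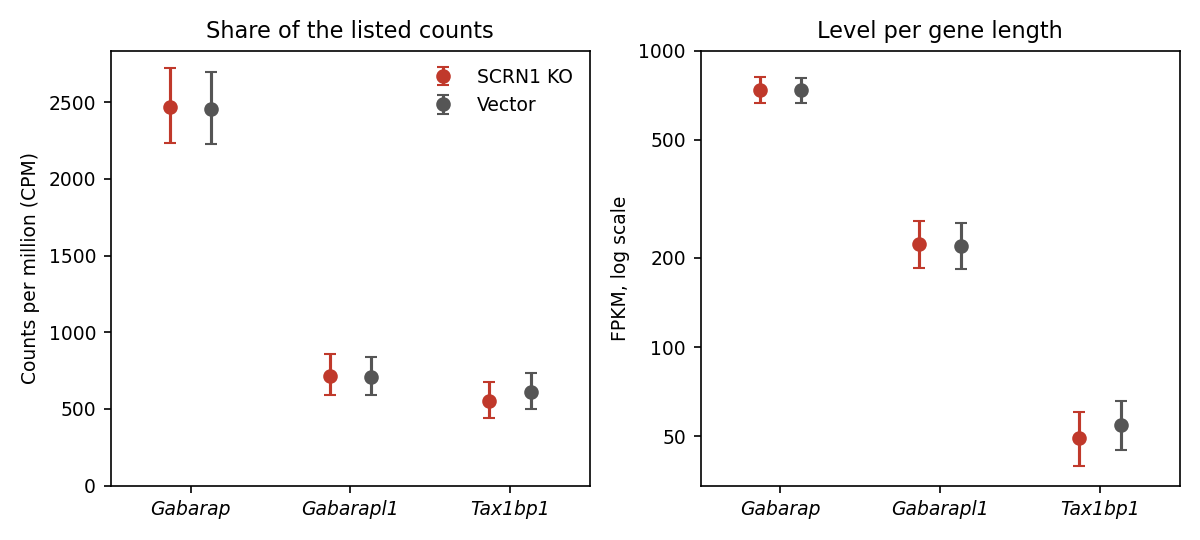
Levels of Gabarap, Gabarapl1 and Tax1bp1 in the SCRN1 KO (red) and vector (grey) libraries, as CPM on a linear axis (left) and as deposited FPKM on a log axis (right). Points are the single library of each group and bars are 95% exact Poisson intervals, which overlap between the libraries for each gene, with Gabarap near 2469 and 2455 CPM.

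A gene with a summed count of 20 or more was called when its ratio reached 2-fold and the interval excluded 1, and 0 of the 3 genes were called. By the same rule 7.24% of the 1588 genes compared were called, 53 of them (3.34%) higher and 62 (3.90%) lower in knockout than in vector cells. That split is 42 higher and 89 lower with median-of-ratios scaling, which shifts each log2 ratio by -0.15 and left these counts unscaled. At an assumed coefficient of variation of 0.2 between cultures, edgeR's exact test also called 0 of the 3 genes at an adjusted p of 0.05. It called 46 of the 1588 genes compared. The 3 counting intervals with TMM scaling stayed within 1.5-fold of equality in both directions. How far cultures of either genotype differ from each other cannot be read from 1 library each.

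The side of equality on which the ATG8 genes fell changed only under median-of-ratios scaling, whose equal factors left the different library totals uncorrected. Under median-of-ratios factors the ratio was 0.922 (0.804 to 1.06) for Gabarap and 0.929 (0.716 to 1.20) for Gabarapl1, both below 1, whereas library totals, upper quartile factors and the ratio of deposited FPKM values put both above 1. Tax1bp1 was below 1 under each of these scalings, from 0.826 (0.618 to 1.10) with median of ratios to 0.921 (0.689 to 1.23) with the upper quartile. Each of these intervals included 1. Gene length cancels in the FPKM ratio, so that ratio nearly repeated library totals, at 1.006 for Gabarap under both.

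**Figure D2:**
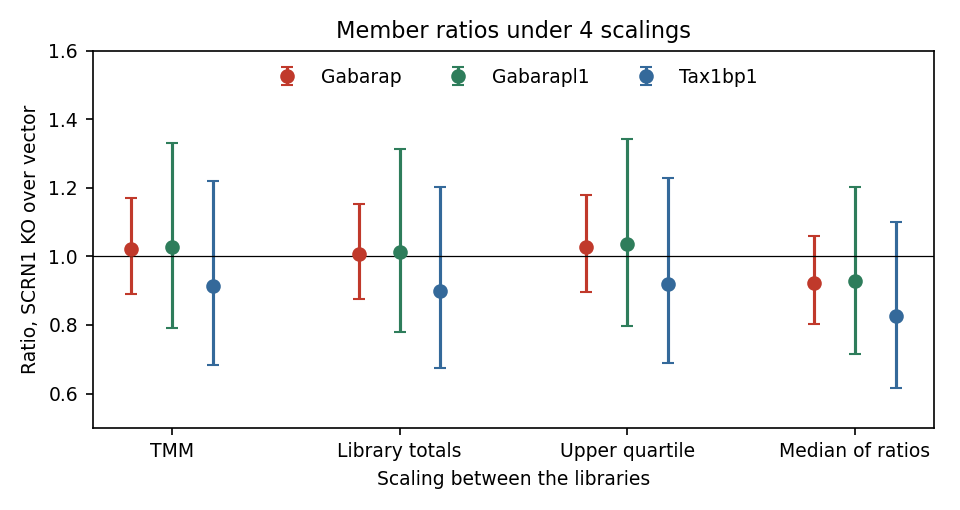
Ratio of the SCRN1 KO to the vector library for each gene (vertical axis) under 4 scalings of the counts (horizontal axis). Points are ratios and bars 95% exact conditional intervals. Each bar crosses the line at 1, including those of Gabarap (0.922) and Gabarapl1 (0.929) with median-of-ratios scaling, whose equal factors leave the counts unscaled.

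Among the 615 genes with at least 100 counts, whose quartiles of the log2 ratio were -0.13 and 0.21, Gabarap and Gabarapl1 lay close to the median of 0.05 and Tax1bp1 lay at about the lower quartile. A log2 ratio nearer to 0 than that of Gabarap (0.03) was found for 8.13% of these genes, nearer than that of Gabarapl1 (0.04) for 10.7%, and nearer than that of Tax1bp1 (-0.13) for 36.7%. The robust SD of the log2 ratio over these 615 genes was 0.26. Over 2 libraries, the protein-coding genes with a log2 ratio near that of Gabarap included Ube2b (247 counts in the knockout and 268 in the vector). Those nearest to Gabarapl1 were Cstf3 (129 in the knockout and 139 in the vector) and Cltc (263 in the knockout and 283 in the vector). Those nearest to Tax1bp1 were Mbnl1 (85 in the knockout and 103 in the vector) and Map3k20 (57 in the knockout and 69 in the vector). With only 2 libraries, likeness in this sense means no more than a similar ratio, and each gene named lay within 0.0015 of its match on the log2 scale out of 554 candidates.

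**Figure D3:**
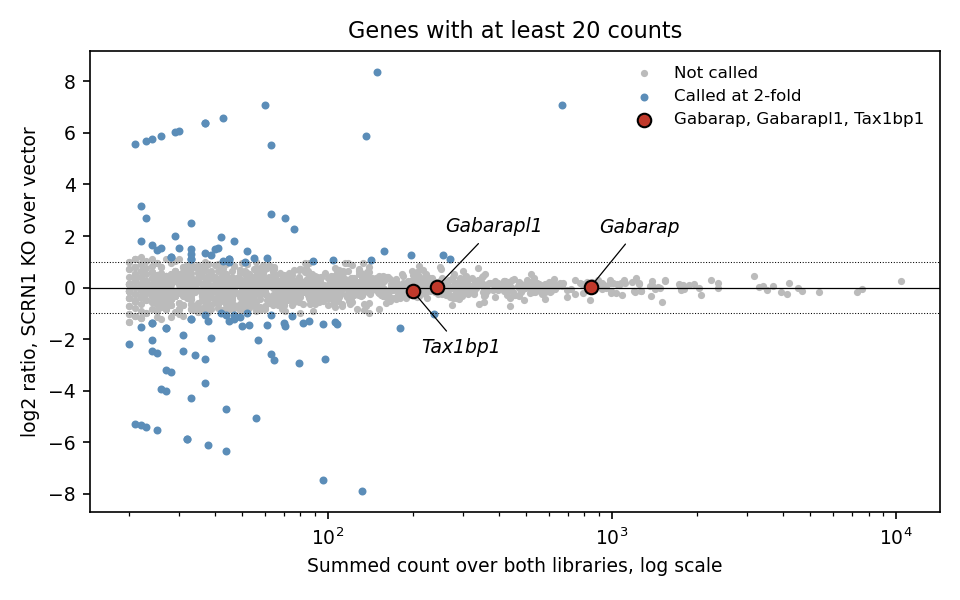
Log2 ratio of SCRN1 KO over vector (vertical axis, 0.5 added to each count) against the summed count over both libraries (horizontal log axis) for the 1588 genes with at least 20 counts. Blue points are the 115 genes called at 2-fold, and the red points of Gabarap, Gabarapl1 and Tax1bp1 lie near 0, at 0.03, 0.04 and -0.13.

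The order of the 3 genes by level was the same in both libraries. Per gene length, Gabarap had 739 FPKM (668 to 814) in the knockout and 734 FPKM (667 to 807) in the vector library. Gabarapl1 had 223 FPKM (184 to 267) in the knockout and 220.2 FPKM (183 to 262) in the vector library. Tax1bp1 had 49.3 FPKM (39.7 to 60.6) in the knockout and 54.8 FPKM (45.0 to 66.1) in the vector library. No interval of one gene reached that of its neighbour in this order, so the steps in FPKM level exceeded counting error in both libraries. Gabarap stood 3.31-fold above Gabarapl1 in the knockout and 3.34-fold above it in the vector library on the FPKM scale. Gabarapl1 stood 4.52-fold above Tax1bp1 in the knockout and 4.02-fold above it in the vector library.

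The distance of Tax1bp1 from the other genes was smaller on the count scale, where Gabarapl1 exceeded Tax1bp1 by 1.3-fold in the knockout and 1.16-fold in the vector library, and the CPM intervals of these 2 genes overlapped in both libraries. The deposited FPKM values imply a model of 11.1 kb for Tax1bp1, 3.33 kb for Gabarap and 3.19 kb for Gabarapl1. These are lengths of mouse models, while the RNA is labelled human, so FPKM levels between genes also carry any difference in how much of each model human reads could match. Among all 3764 listed genes Gabarap ranked 78 by FPKM in the knockout and 74 in the vector library, Gabarapl1 ranked 187 in the knockout and 188 in the vector library, and Tax1bp1 ranked 616 in the knockout and 585 in the vector library.

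The balance within the GABARAP pair was nearly the same in both libraries. Gabarap held 77.5% (73.7 to 81.1) of 521 joint counts in the knockout library and 77.7% (74.0 to 81.0) of 564 in the vector library. The ratio for Gabarapl1 divided by that for Gabarap was 1.01 (0.749 to 1.35), a quantity from which any scaling factor cancels. For the receptor, the ratio for Tax1bp1 divided by that for Gabarap was 0.895 (0.648 to 1.23), and divided by that for Gabarapl1 it was 0.889 (0.600 to 1.32). Each of these 3 intervals included 1, so no difference between the genes was detectable at this depth, and the bounds show how large a difference the counts still allow. Together the 3 genes had 611 counts in the knockout and 673 in the vector library, a pooled ratio of 1.005 (0.899 to 1.12). Median-of-ratios scaling gave a pooled value of 0.908 (0.812 to 1.01).

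Since Gabarap and Gabarapl1 are paralogs, their human reference coding sequences were compared. The counts belong to mouse models of 3.33 kb and 3.19 kb, so this comparison does not show which sequences lie behind them. In GENCODE 29 both coding sequences are 354 bases long with the stop codon. They share 272 bases (76.8%), and 58 of their 82 differences (70.7%) fall on the third base of a codon. In 90-base windows moved by 1 codon, the fewest differences were 15, in bases 151 to 240 counted from the A of the start codon. That window is given for both genes, with differing bases in capitals.
GABARAPL1: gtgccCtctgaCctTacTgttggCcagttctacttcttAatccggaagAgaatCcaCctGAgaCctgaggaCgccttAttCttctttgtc
GABARAP: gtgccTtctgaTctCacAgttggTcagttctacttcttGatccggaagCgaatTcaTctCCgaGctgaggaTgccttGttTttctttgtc
The most differences in a window of that size were 27, in bases 37 to 126, again with differing bases in capitals.
GABARAPL1: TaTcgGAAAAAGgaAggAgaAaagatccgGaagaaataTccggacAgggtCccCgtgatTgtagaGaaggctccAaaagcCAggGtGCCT
GABARAP: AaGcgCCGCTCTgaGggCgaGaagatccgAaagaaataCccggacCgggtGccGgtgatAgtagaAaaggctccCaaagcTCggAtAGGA
Even in the window where they are most alike the capitals are spread throughout, and the longest run that both coding sequences share is 14 bases. The longest run that TAX1BP1 shares with either is 12 bases, with GABARAPL1. In the human annotation GABARAPL1 has a processed pseudogene, GABARAPL3, on chromosome 15, which matches 338 of its 354 coding bases (95.5%) with a shared run of 67 bases. The sources used here do not say how reads that match more than 1 gene were counted. GABARAPL3 belongs to the human annotation, and whether it bears on the counts of the mouse model of Gabarapl1 was not tested. No listed gene overlapped any of the 3 genes on the mouse coordinates, and none was named as a copy of one.

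The nearest listed gene to Gabarap, at 541 bases, was Ctdnep1, a nuclear envelope phosphatase gene, which had 41 counts in the knockout and 38 in the vector library, a ratio of 1.19 (0.749 to 1.91). The nearest to Tax1bp1, at 2016 bases, was Jazf1, a zinc finger gene, which had 7 counts in the knockout and 3 in the vector library, a ratio of 2.58 (0.590 to 15.5). Neither of these 2 was distinguishable from equality. The nearest listed genes to Gabarapl1 were far off, Tspan9 at 1389565 bases with 8 counts in the knockout and 0 in the vector library, and Ybx3 at 1822508 bases with 13 counts in the knockout and 1 in the vector library. The intervals of both start above 1, at 1.89 for Tspan9 and 2.16 for Ybx3, and both have fewer than 20 counts.

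The other genes of the pathway were taken from a written list of 100 genes in 7 groups, the 3 genes included. Of these, 37 were listed in the table and 15 had at least 20 counts. Apart from the 3 genes, 12 were compared and 0 were called in either direction, beside 7.24% of all genes compared. Their median log2 ratio was -0.06, beside 0.03 over the 1588 genes. Of the 12, 3 lay above a ratio of 1 and 9 lay below, and each of the 12 intervals included 1. In the ATG8 family itself Gabarapl2, Map1lc3a and Map1lc3b were not among the listed genes, so Gabarap and Gabarapl1 were its only measured members.

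In the machinery that attaches ATG8 proteins to membranes, 1 gene was compared. Atg5, part of the complex that directs the conjugation, had 12 counts in the knockout and 24 in the vector library, a ratio of 0.553 (0.252 to 1.15) that did not pass. Among the other cargo receptors 3 were compared and 0 passed. Nbr1, a receptor that like TAX1BP1 binds ubiquitin, had 6 counts in the knockout and 14 in the vector library, a ratio of 0.474 (0.149 to 1.31). Its point estimate was below 0.5, but the interval included equality. Retreg1, an endoplasmic reticulum receptor, had a ratio of 0.885 (0.378 to 2.03), and Sec62, which acts in recovery from endoplasmic reticulum stress, had 1.31 (0.541 to 3.22). Sqstm1, the best known ubiquitin-binding receptor, had only 2 counts in the knockout and 0 in the vector library, under the floor in both. The counts belong to mouse models, and whether low or missing counts of list genes mean little RNA was not tested.

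Of the genes that start autophagosome formation, 3 were compared and 0 passed. Becn1, a subunit of the lipid kinase complex that starts the membrane, had 40 counts in the knockout and 45 in the vector library, a ratio of 0.984 (0.626 to 1.54). Its regulator Ambra1 had a ratio of 0.943 (0.516 to 1.71), and Vmp1, a membrane protein of the endoplasmic reticulum, had 0.922 (0.357 to 2.33). Of the fusion and lysosome genes, 3 were compared and 0 passed. Vamp7, a SNARE of late endosomes and lysosomes, had 56 counts in the knockout and 55 in the vector library, a ratio of 1.13 (0.763 to 1.67). Rab7, a GTPase of late endosomes, had a ratio of 0.992 (0.561 to 1.75), and Ctsb, a lysosomal protease gene, had 0.521 (0.195 to 1.27).

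Of the partners of TAX1BP1, 2 were compared and 0 passed. Rnf11, a ubiquitin ligase of the TNFAIP3 complex, had 59 counts in the knockout and 67 in the vector library, a ratio of 0.975 (0.675 to 1.40). Itch, another ligase of that complex, had 32 counts in the knockout and 28 in the vector library, a ratio of 1.26 (0.738 to 2.18). Tnfaip3 and Myo6 were not among the listed genes. Of the upstream kinases none reached 20 counts, and Mtor had 9 counts in each library.

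**Figure D4:**
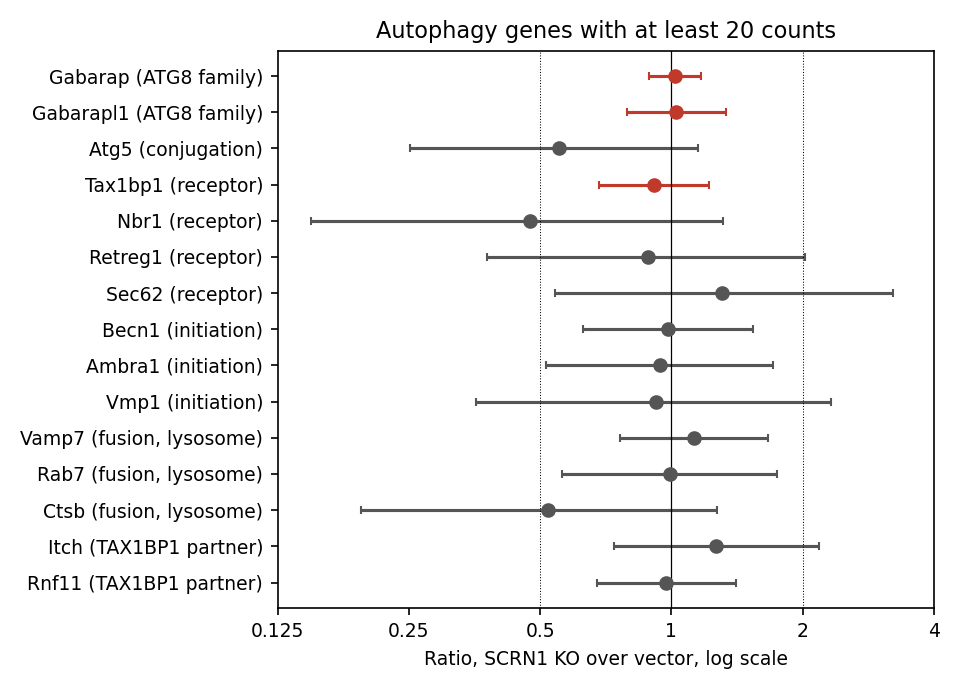
Ratio of SCRN1 KO over vector (horizontal log axis) for the 15 autophagy genes with at least 20 counts, with 95% exact conditional intervals, Gabarap, Gabarapl1 and Tax1bp1 in red and the role of each gene in brackets. Each interval crosses 1, and dotted lines mark 0.5 and 2; Nbr1 (0.474) is the only point estimate beyond them.

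Among list genes below 20 counts, the lower total in the knockout rested largely on 3 genes. The 22 list genes of that depth summed to 47 counts in the knockout and 105 in the vector library, a ratio of 0.495 (0.343 to 0.705), and 7 of them (31.8%) were at 0 in the knockout against 3 at 0 in the vector. All 2176 listed genes of that depth had a ratio of 0.857 (0.826 to 0.889), with 468 (21.5%) at 0 in the knockout and 209 (9.60%) at 0 in the vector. Without a count minimum, 3 of the 34 other list genes passed the 2-fold rule, each lower in the knockout. Of all 3764 genes, 295 passed in either direction, 167 of them (4.44%) lower in the knockout. Ctsd, a lysosomal aspartic protease gene, had 1 count in the knockout and 16 in the vector library, a ratio of 0.0692 (0.00165 to 0.445). Vps11, a subunit of tethering complexes that act before lysosomal fusion, had 0 counts in the knockout and 12 in the vector library. Its ratio was 0, with an interval of 0 to 0.398. With the floor of 3 counts in place of 0 it was 3.61-fold lower in the knockout, a value that leaves out counting error in the vector library. Atg9a, which supplies membrane to the growing autophagosome, had 2 counts in the knockout and 12 in the vector library, a ratio of 0.184 (0.0200 to 0.829). Without these 3, a comparison chosen after seeing the data, the other 19 genes had 44 counts in the knockout and 65 in the vector library. Their ratio was 0.749 (0.499 to 1.12), an interval that includes equality. Since the 3 genes were taken out for being called lower, a move toward 1 was built in and nothing is concluded from it.

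The authors' own comparison was set beside these ratios. In the authors' deposited table the log2 fold change, given as vector over knockout, was -0.0084 for Gabarap, -0.018 for Gabarapl1 and 0.15 for Tax1bp1, and the adjusted p was 1 for each. The authors' deposited table called 2.68% of its 3764 genes at an adjusted p of 0.05, among them Vps11 (0.0282) and Ctsd (0.0329), while Atg9a had 0.297.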

How the data were processed

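The 1 SCRN1 knockout and 1 vector library were grouped by the genotype label. Total RNA was DNase-treated and mRNA separated, per the labels' protocols. Tools named in the submitters' processing notes are HISAT2 2.0.4, StringTie 1.3.0 and bcl2fastq 2.19, with the build GRCh38. The deposited comparison carries edgeR in its name. The sources used here do not give the mouse build of the listed genes, the counting tool or the strand setting. They also do not say which test the authors ran or what spread it assumed.

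Raw counts per gene were deposited by the authors. The deposited FPKM values, per the file headers, are normalized for gene length and depth. The deposited log2 fold changes are vector over knockout, and the deposited p-value columns compare 1 library with 1.

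TMM factors were computed here over all listed genes (edgeR 4.0.16 in R 4.3.3). Ratios and shares had Clopper-Pearson intervals (95%) and levels Poisson intervals. Since reads are not separate molecules, intervals and floors hold counting error only. The log2 ratios had 0.5 added to each count. A quasi-likelihood test needs replicates and was not run. The members and lists were chosen with earlier results of these data known. Named genes were the members, list genes with at least 20 counts or called, the 2 abundant protein-coding genes (at least 100 counts) nearest each member in log2 ratio, and overlapping genes or copies. A gene that the rule takes is not reported here. Neighbouring genes, Sqstm1, Mtor and the genes named from the KEGG annotation were chosen after their values were seen. Human coordinates and sequences are from GENCODE 29. The ratio and its call rule were tested on simulated data with counting error only, which cannot show how they behave with spread between cultures. Alternatives covered scaling (library totals, upper quartile, DESeq2 1.42.0), count minimum, fold, FPKM and assumed spread. Software was Python 3.11.15 with SciPy 1.17.1, NumPy 2.4.6, matplotlib 3.10.9 and pandas 2.3.3.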

Additional observations from a re-analysis of the deposited data

How the results depend on the processing

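Of 49 alternative values, 41 stayed inside the interval or spread of the value they were set against, or within 1.5 times a count. The other 8 moved further. Several of the 41 had little room to move, so their number is no measure of stability. The spread for the list median log2 ratio was the SD across 12 genes, 0.468. A median of -0.204 with median-of-ratios scaling therefore counted as inside, beside -0.058 in the main setting. Counts of called genes were compared without regard to direction. For single genes and pairs the FPKM alternatives were not separate checks, since they nearly repeat the library totals or the main value. The calls among Gabarap, Gabarapl1 and Tax1bp1 stayed at 0 under the 3 other scalings, a 1.5-fold threshold and an assumed coefficient of variation of 0.2. Their ratios ran from 0.826 to 1.04 over the scalings, so a change of scaling could not bring any of them to 2-fold. Among the other list genes, 0 calls of 12 became 3 of 20 with a minimum of 10 counts and 3 of 34 with no minimum. They became 2 of 24 with no minimum but without genes at 0, a setting for which the share over all genes was not computed. With the deposited KEGG annotation in place of the list they became 2 of 30. The last 2 settings were chosen after seeing the data. Over all genes, 115 calls of 1588 became 188 of 1969 with a minimum of 10 counts and 295 of 3764 with no minimum. Among the 1588 they became 181 at 1.5-fold and 46 at the assumed coefficient of 0.2. Adding copies of a member could not be run, since no listed gene was named as one. The median-of-ratios factors came out equal for both libraries, so their different totals were left uncorrected. No paired analysis was possible because each group has 1 library. Depth limits Tax1bp1 most among the 3 genes, with 199 counts over both libraries.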

Other observations

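The deposited table annotates 60 listed genes with the KEGG terms for autophagy or mitophagy in animals, and 33 of them had at least 20 counts. Apart from Gabarap, Gabarapl1 and Tax1bp1, 30 were compared, and 2 passed the 2-fold rule, both lower in the knockout library. Of all genes compared, 7.24% passed in either direction and 3.90% passed as lower. Hif1a, the oxygen-regulated transcription factor gene, had 8 counts in the knockout and 55 in the vector library, a ratio of 0.161 (0.0662 to 0.340). Pdpk1, a kinase gene that acts upstream of AKT, had 17 counts in the knockout and 54 in the vector library, a ratio of 0.348 (0.189 to 0.610). Neither encodes a part of the ATG8 or receptor machinery.

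The other compared genes with these annotations did not pass. Rragc, a GTPase gene of nutrient sensing, had 90 counts in the knockout and 101 in the vector library, a ratio of 0.986 (0.734 to 1.32). Rps6kb1, a kinase gene downstream of mTOR, had a ratio of 0.942 (0.732 to 1.21). Higher than these was Itpr1, a calcium channel gene of the endoplasmic reticulum, with 73 counts in the knockout and 42 in the vector library and a ratio of 1.92 (1.298 to 2.88), under the 2-fold threshold. The median log2 ratio of the 30 genes was -0.0035, and 14 of them lay above a ratio of 1 while 16 lay below.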
